A study of Mus musculus with 2 samples.

Results

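The limb identity T-box and related transcription factors are 10 genes, Tbx2, Tbx3, Tbx4, Tbx5, Tbx15, Tbx18, Tbx20, Pitx1, Hand2 and Sall4, taken by symbol from the 23365 genes of a deposited expression table. The table comes from RNA sequencing of mouse embryonic fibroblasts (MEFs), mesenchymal cells grown in culture from embryos. There were 2 genotypes with 1 library each, wild type and a knock-out of TET1 and TET2, the enzymes that oxidize 5-methylcytosine in DNA. The sources used here give no strain, embryo age, passage or allele design. The series title places the work in the study of how Tet1 and Tet2 act on the DNA methylation and regulation of developmental genes.

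In the authors' deposited table the libraries appear as 2 conditions called only A and B, which correspond to no label of either library. Ratios below are B over A, and they cannot be read as knock-out against wild type or the reverse. The columns holding a separate value for each condition were not used, so a gene has 1 level, its mean normalized count over both conditions (gene counts divided by the authors' size factors), and 1 ratio. Each genotype had 1 library, so no difference can be set against a spread between replicates, and the adjusted p-values are the authors' own comparison of 2 libraries. In such bulk RNA, fewer cells of a type and less RNA per cell cannot be told apart.

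T-box proteins are transcription factors named for the DNA-binding domain they share with Brachyury. In the embryo, Tbx5 marks and starts the forelimb, whereas Pitx1 and its target Tbx4 mark the hindlimb, and both T-box factors switch on Fgf10 for limb outgrowth. Tbx2 and Tbx3 are mostly repressors and pattern the front and rear margins of the limb. Hand2, a bHLH factor, sets up Shh in the rear margin, Sall4 is a zinc finger factor of the early limb bud and of stem cells, and Tbx15, Tbx18 and Tbx20 act in dermal and skeletal mesenchyme, in epicardium and somites, and in the heart.

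The T-box genes descend from shared ancestors, so their coding sequences were compared first, to see how long a run of identical bases they share. Bases outside the coding sequence and runs with mismatches were not compared. How far reads could belong to more than 1 gene was therefore not settled. Among all pairs of the 10 genes, the longest run of identical coding bases was 23, by the longest coding GENCODE M21 transcript of each gene. Such runs were found for Tbx4 with Tbx5, for Tbx15 with Tbx18, and for Tbx4 with Hand2, the last within a repeat of the bases GCC. Tbx2 and Tbx3 shared a longest run of 14 and were 70.3% identical over 2007 aligned coding bases. That identity leaves out gaps and does not measure kinship. Hand2 and Sall4, of different families, reached 82.6% over 648 aligned bases. No read length is given in the sources used here. The runs for 3 pairs of related T-box genes are shown, 5′ to 3′.
Tbx4 and Tbx5: cagctgaaaattgagaacaaccc
Tbx15 and Tbx18: catagctctaagtggatggtggc
Tbx2 and Tbx3: ctggaggccaagga

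Because the study concerns DNA methylation, which falls on CpG dinucleotides, promoter sequence was examined for the 4 members with an entry in the RefSeq promoter table (GRCm38.p6), Hand2, Tbx18, Tbx4 and Tbx20. The first 3 were higher in B and Tbx20 lay at a ratio near 1, as described below. Each sequence is the 250 bases before the annotated start, 5′ to 3′ on the gene's strand, with each CpG in capitals. They are Hand2 at chr8:57320733-57320982 on the plus strand, Tbx18 at chr9:87731261-87731510 on the minus strand, Tbx4 at chr11:85896515-85896764 on the plus strand and Tbx20 at chr9:24774304-24774553 on the minus strand. The Tbx4 start in that table lies inside the annotated gene, downstream of the first base of longer GENCODE M21 transcripts.
Hand2: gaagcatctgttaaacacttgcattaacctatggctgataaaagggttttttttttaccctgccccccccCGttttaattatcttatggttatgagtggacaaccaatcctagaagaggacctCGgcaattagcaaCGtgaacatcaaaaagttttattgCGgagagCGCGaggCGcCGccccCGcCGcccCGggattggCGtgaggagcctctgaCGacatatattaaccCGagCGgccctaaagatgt
Tbx18: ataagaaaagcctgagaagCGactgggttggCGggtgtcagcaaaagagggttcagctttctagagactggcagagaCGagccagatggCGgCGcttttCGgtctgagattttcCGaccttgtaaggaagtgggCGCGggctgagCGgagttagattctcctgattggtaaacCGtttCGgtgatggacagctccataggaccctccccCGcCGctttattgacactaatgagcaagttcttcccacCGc
Tbx4: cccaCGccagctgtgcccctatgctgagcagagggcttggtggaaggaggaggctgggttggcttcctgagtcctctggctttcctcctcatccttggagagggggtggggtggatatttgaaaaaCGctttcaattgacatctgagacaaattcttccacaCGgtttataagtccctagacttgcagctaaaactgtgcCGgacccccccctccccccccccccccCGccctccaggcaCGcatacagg
Tbx20: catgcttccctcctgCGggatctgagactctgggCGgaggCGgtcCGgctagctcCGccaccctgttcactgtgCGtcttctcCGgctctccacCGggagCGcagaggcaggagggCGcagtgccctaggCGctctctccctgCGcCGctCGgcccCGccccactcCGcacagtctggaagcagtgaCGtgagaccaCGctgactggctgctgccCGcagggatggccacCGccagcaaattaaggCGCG

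CpG counts were well above the median of all promoter windows in 3 of these promoters, and above the upper quartile in Tbx20 alone. Over the table's 300-base window, which adds 50 bases after the start, Tbx20 had 26 CpGs, Hand2 17, Tbx18 15 and Tbx4 8. The median over 32851 windows in the RefSeq table was 7, with quartiles of 3 and 20. The observed over expected CpG ratio, which corrects for base composition, was 0.90 in Hand2, 0.75 in Tbx18, 0.75 in Tbx20 and 0.31 in Tbx4, against a median of 0.38 over all windows. Tbx20 thus had the most CpGs of the 4 and Tbx4 the fewest. A link between CpG count and expression ratio was not tested. The T-box core motif TCACAC, searched on both strands (reverse complement GTGTGA), was in none of the 4 windows and in 14.5% of all windows. Methylation itself was not measured in these files.

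Levels spanned a wide range. Tbx15 had by far the highest level, a mean normalized count of 11066 according to the authors' deposited table, and 6.57% of the 17339 genes listed above 0 had a higher one. Per kilobase of the longest GENCODE transcript, the level of Tbx15 was 3103. That of Tbx3 was 233 per kilobase, followed by Tbx18 at 168, Hand2 at 142, Tbx2 at 114 and Tbx5 at 110. The hindlimb factors were lower, Pitx1 at 64.7 and Tbx4 at 40.8 per kilobase, and Tbx20 lay at 2.36. Sall4 is listed at 0 according to the authors' deposited table. No spread over libraries was available, so whether neighbours in this order differ was not tested, and transcripts shorter than the longest would raise a gene's value per kilobase.

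**Figure D1:**
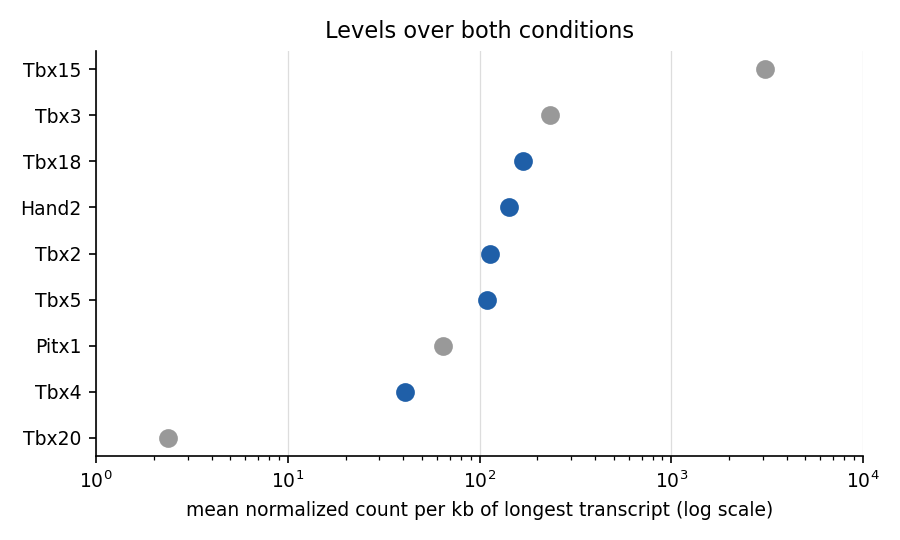
Mean normalized count over both conditions per kilobase of the longest GENCODE M21 transcript, on a log scale, for the 9 genes listed above 0. Blue points are genes higher in B by at least 2-fold and grey points the others; Tbx15, at 3103, stands apart from the rest, which lie between 2.36 and 233.

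Mean normalized counts reached 50, the minimum used here, in 8 of the 10 genes, while Tbx20 lay below it and Sall4 was at 0. This mean is over both conditions, so here and in the lists below a gene can reach it through 1 condition alone. By its mean and ratio, Tbx2 reached it through B. A 2-fold limit, a log2 ratio of at least 1 in either direction, was applied to these 8 genes, and 5 were higher in B past it and 0 higher in A. Over all 12401 genes at this minimum, 8.31% were higher in B and 9.60% higher in A by the same rule. The median log2 ratio of the 8 genes was 1.49, and that of all 12401 genes was -0.04. Of the 8 genes, 1 (Tbx2) had an adjusted p below the limit of 0.1 in the authors' deposited table, against 1.98% of all genes in that direction and 1.22% in the other.

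**Figure D2:**
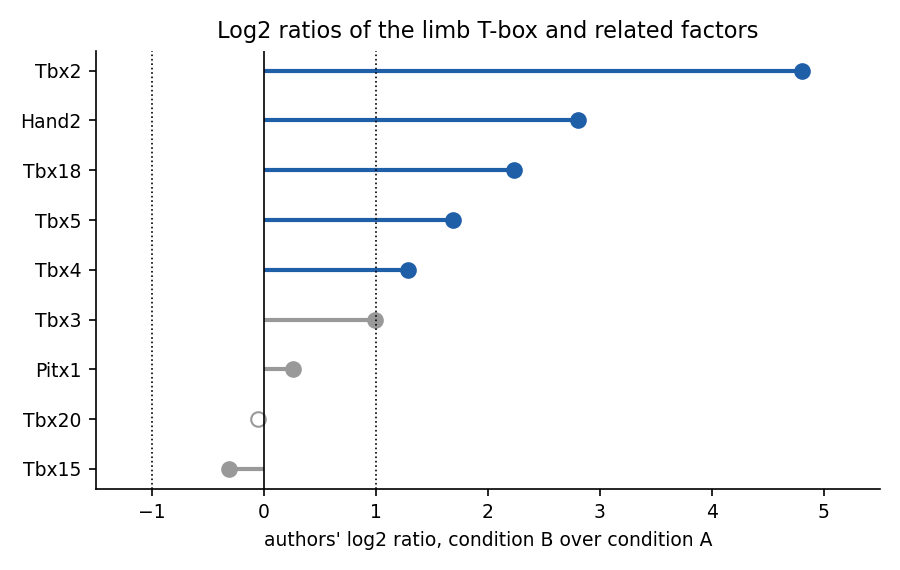
Log2 ratio of B over A in the authors' deposited table for 9 genes, from the highest (Tbx2, 4.80) to the lowest (Tbx15, -0.32). Dotted lines mark a log2 ratio of 1 in either direction, blue marks the 5 genes past it and the open point is Tbx20, below the minimum mean; there are no error bars since each genotype had 1 library.

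The repressor genes Tbx2 and Tbx3 were both listed higher in B but by unlike amounts. Tbx2, at a mean of 412, was 27.9-fold higher in B according to the authors' deposited table (p = 2.25e-06, adjusted p = 0.000387). A higher ratio was found for 89 of the 12401 genes, or 0.718%. Tbx3 had a mean normalized count of 1160 and a 1.98-fold ratio according to the authors' deposited table, just under the 2-fold limit at a log2 ratio of 0.99 (p = 0.164, adjusted p = 1). The log2 ratio of Tbx2 exceeded that of Tbx3 by 3.82, a difference with no test. Tbx3 is overlapped on the other strand by Tbx3os1 in GENCODE M21, and the library kit does not mark strand.

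Among the factors of limb type, the ratio of Tbx5 was larger than that of Tbx4, and Pitx1 was near a ratio of 1. The forelimb gene Tbx5 had a mean of 433 and was 3.23-fold higher in B according to the authors' deposited table (p = 0.0514, adjusted p = 0.810). Tbx4, its hindlimb counterpart, is given in the authors' deposited table as 2.43-fold higher with a mean of 129 (p = 0.320, adjusted p = 1). Pitx1 had a log2 ratio of 0.26 and a mean of 159 according to the authors' deposited table (adjusted p = 1). The forelimb and the hindlimb T-box gene were therefore both past the 2-fold limit in the same direction, at log2 ratios of 1.69 and 1.28, and neither passed the adjusted p.

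Hand2 and Tbx18 had the second and the third highest ratios. Hand2, of the rear limb margin and the heart, had a mean of 333 and was 6.98-fold higher in B in the authors' deposited table (p = 0.00391, adjusted p = 0.144). Tbx18 was 4.70-fold higher with a mean of 785 in the authors' deposited table (p = 0.00418, adjusted p = 0.152). Both had raw p-values under 0.05 and missed the adjusted threshold of 0.1. Each is overlapped by a transcript on the other strand in GENCODE M21, Hand2 by Hand2os1 and Tbx18 by D030062O11Rik, and neither name is a row of the table. Other annotated genes overlap Tbx15 (Gm43120), Pitx1 (Gm28760 and Gm47071) and Sall4 (Gm14261).

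Tbx15 and Tbx18, close relatives in the T-box family, differed in both level and ratio. Their coding sequences were 69.6% identical over 1696 aligned bases, a measure by which some pairs from different families scored higher. Tbx15 had a log2 ratio of -0.32 according to the authors' deposited table (p = 0.609, adjusted p = 1) at a level 18.5 times as high per kilobase as that of Tbx18. The difference between the log2 ratios of Tbx15 and Tbx18 was -2.55. Tbx20, the heart factor, had a log2 ratio of -0.05 at a mean normalized count of 21.5 according to the authors' deposited table (adjusted p = 1), where a ratio rests on few reads.

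The spread of ratios over all genes depended on the level, which bears on how these ratios read. Among 1324 genes with a mean of 50 to 200, where Tbx4 and Pitx1 lie, 25.3% were higher in B by the 2-fold limit and 20.3% higher in A. Among 2741 genes from 200 to 1000, these shares were 12.9% and 16.6%, and all 4 members at this level, Tbx2, Tbx5, Tbx18 and Hand2, were higher in B. Among 8336 genes at 1000 or more the shares were 4.10% and 5.60%, and neither Tbx3 nor Tbx15 met the rule.

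**Figure D3:**
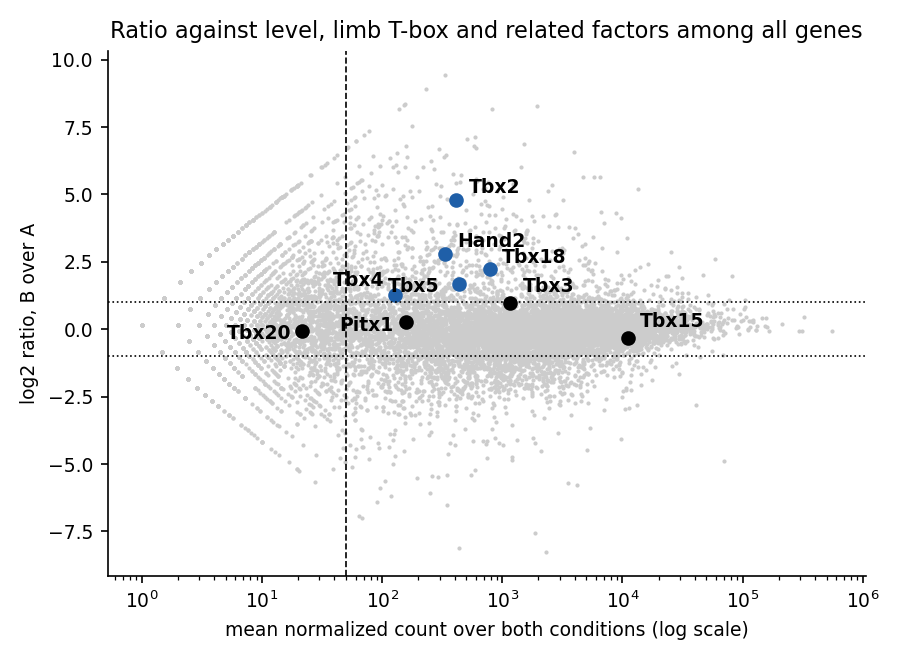
Log2 ratio of B over A against mean normalized count (log scale) in the authors' deposited table, with all genes of finite ratio in light grey. Blue points are the 5 named genes past the 2-fold limit, black points Tbx3, Pitx1, Tbx15 and Tbx20; dotted lines mark the 2-fold limit and the dashed line the minimum mean of 50.

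Genomic position was not used to choose the genes. Tbx2 and Tbx4 are adjacent on chromosome 11, and Tbx3 and Tbx5 are adjacent on chromosome 5, in the RefSeq gene order of GRCm38, which served for order alone since the authors' build was mm9. All 4 had log2 ratios above 0, at 4.80 and 1.28 in the first pair and 0.99 and 1.69 in the second. The nearest 3 table genes on each side of the 10 members gave 48 distinct other genes, of which 25 were at the minimum mean. Of these 25, 2 were higher in B and 4 higher in A by the 2-fold limit, with a median log2 ratio of -0.05, beside 8.31% and 9.60% of all genes.

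The neighbours past the 2-fold limit went both ways. Nt5e, which encodes the surface nucleotidase CD73 and follows Tbx18 in gene order, was 17.3-fold lower in B according to the authors' deposited table (mean 1324, adjusted p = 3.99e-05), opposite to Tbx18. In the authors' deposited table Brip1, a helicase gene of DNA repair beyond Tbx4, had a log2 ratio of -1.56, and Hmgb2, a chromatin protein gene beyond Hand2, one of -1.94 (adjusted p = 0.881 and 0.120). Eepd1, near Tbx20, had a log2 ratio of -1.36 at a mean of 63.9 according to the authors' deposited table (adjusted p = 1). Higher in B in the authors' deposited table were the chemokine gene Cxcl14, near Pitx1, at 4.53-fold, and Tshz2, a zinc finger factor gene near Sall4, at 9.34-fold (adjusted p = 0.0489 and 0.0220). Of the 25 neighbours, 3 passed the authors' adjusted p, Nt5e, Cxcl14 and Tshz2, beside 1.98% of all genes higher in B and 1.22% higher in A.

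**Figure D4:**
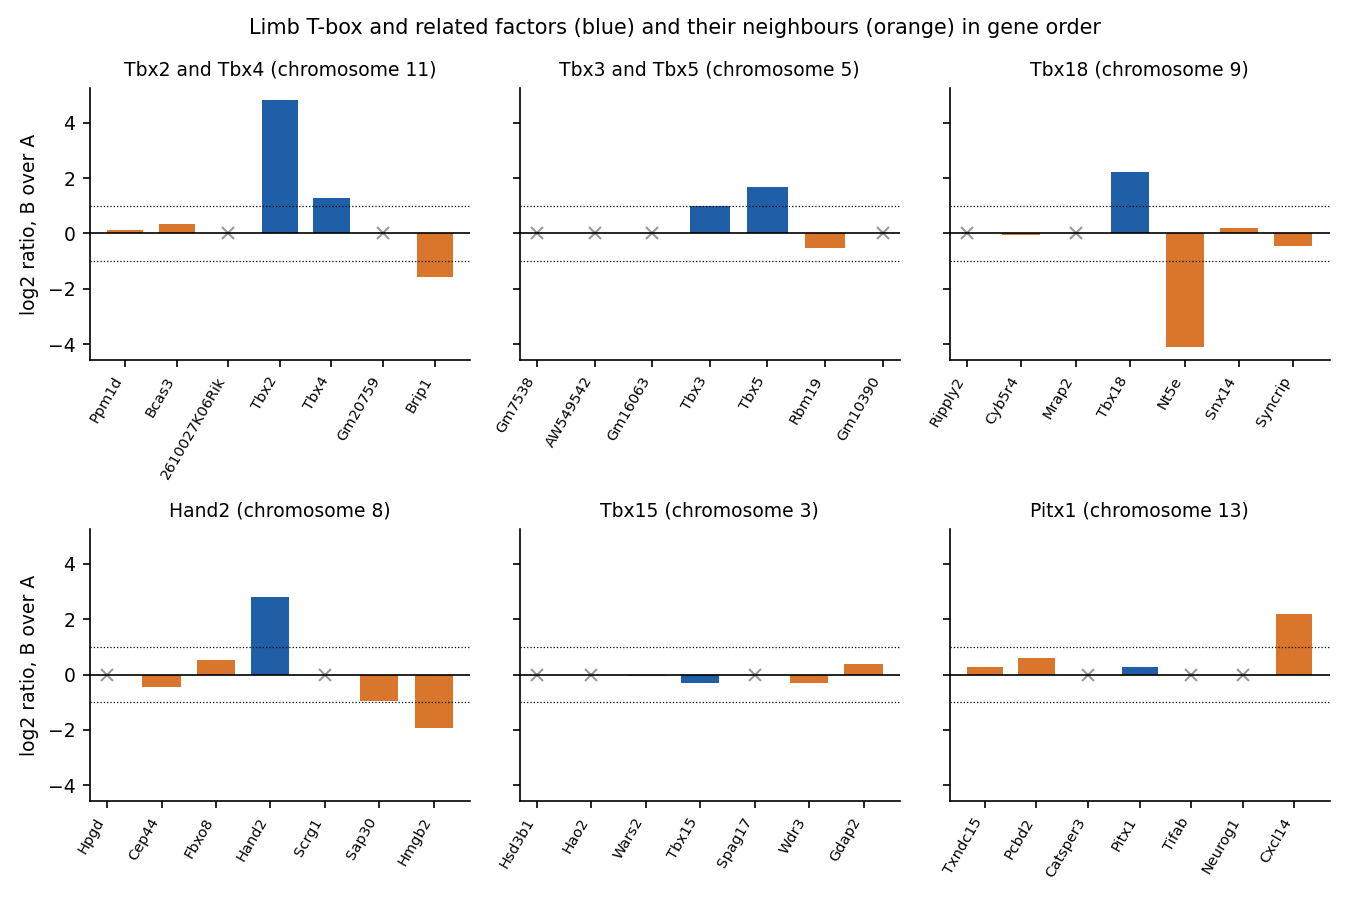
Log2 ratio of B over A in the authors' deposited table for 6 loci, with genes in RefSeq order at even spacing. Blue bars are the limb T-box and related factors, orange bars their neighbours and grey crosses genes under the minimum mean of 50; Tbx18 (2.23) and Nt5e (-4.12) point opposite ways.

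The other T-box genes were few at this minimum. Of 10 such genes, 3 are listed at 0 according to the authors' deposited table (Tbx21, Tbx22 and T), 4 lay between 0 and 50, and 3 were at the minimum mean. By the 2-fold limit 2 of these 3 were higher in B, beside 8.31% of all genes at the minimum mean. Both had means between 50 and 200, where 25.3% of genes were higher in B. By their means and ratios both lay under 50 in A, so they reached the minimum through B. Eomes, a factor of early mesoderm and brain, had a log2 ratio of 4.18 at a mean of 63.4 according to the authors' deposited table (adjusted p = 0.675). Tbx1, of the pharyngeal arches, was 5.30-fold higher in B at a mean of 143 in the authors' deposited table (adjusted p = 0.882). Mga, the broadly expressed T-box and bHLH protein gene, had a log2 ratio of -0.58 at a mean of 5477 according to the authors' deposited table (adjusted p = 1). None of the 3 passed the authors' adjusted p.

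Of 5 relatives of Pitx1, Hand2 and Sall4, 1 was at the minimum mean, Sall2, with a log2 ratio of -0.27 and a mean of 1999 in the authors' deposited table (adjusted p = 1). Hand1 had a mean normalized count of 0.474 according to the authors' deposited table.

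Signals of the limb bud were split, with 3 of 12 genes at the minimum mean higher in B and 3 higher in A by the 2-fold limit. Their median log2 ratio was -0.01. Over all genes at that minimum, 8.31% were higher in B and 9.60% higher in A. The authors' adjusted p was passed by 2, both higher in A. Cyp26b1, which breaks down retinoic acid in the distal limb, was 23.1-fold lower in B in the authors' deposited table (mean 2092, adjusted p = 2.00e-06). Rspo2, a secreted amplifier of Wnt signalling needed for limb outgrowth, was 16.8-fold lower in B according to the authors' deposited table (mean 9747, adjusted p = 2.74e-06). By the authors' deposited table, Aldh1a2, which makes retinoic acid, had a log2 ratio of 4.93 at a mean of 105 (adjusted p = 0.126), the opposite direction to Cyp26b1. Fgf9 lay at 1.99 with a mean of 54.1 according to the authors' deposited table (adjusted p = 1). By their means and ratios, both Aldh1a2 and Fgf9 lay under the minimum in A and reached it through B. The contrast of Aldh1a2 with Cyp26b1 therefore rests on a low count of Aldh1a2 in A. Outside the naming rule, and chosen after their values were seen, were Ptch1 and Fgf10, the other members of this list past the 2-fold limit. Ptch1, the Hedgehog receptor gene, had a log2 ratio of -1.88 at a mean of 861 in the authors' deposited table (p = 0.0130, adjusted p = 0.330). Fgf10 is a known target of Tbx4 and Tbx5. Its log2 ratio was 1.40 at a mean of 3459 according to the authors' deposited table (p = 0.0318, adjusted p = 0.595), beside 1.28 for Tbx4 and 1.69 for Tbx5. A link between the ratio of Fgf10 and those of Tbx4 and Tbx5 was not tested. By the authors' deposited table, Shh, Fgf4 and Fgf8, signals made by the bud's signalling centres, are listed at 0.

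Of 8 limb mesenchyme factors at the minimum mean, 3 were higher in B by the 2-fold limit, and 0 higher in A. Among all genes the shares were 8.31% and 9.60%. The median log2 ratio of the 8 factors was 0.85. Hoxc10, a Hox gene of the hindlimb level, was 34.6-fold higher in B according to the authors' deposited table (mean 895, adjusted p = 2.66e-06), while its hindlimb companions Pitx1 and Tbx4 lay at log2 ratios of 0.26 and 1.28. Lhx9, a LIM homeobox gene of the distal bud, was listed as 6.13-fold higher in B by the authors' deposited table (adjusted p = 0.0395). Prrx1 and Prrx2, homeobox genes found throughout limb mesenchyme, had log2 ratios of 1.14 and 0.86 according to the authors' deposited table (adjusted p = 0.920 and 1). Hoxc10 and Lhx9 were the 2 genes of this list that passed.

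Of 5 genes that TBX2 or TBX3 are known to repress, 4 were at the minimum mean. Of these, 2 were higher in B and 0 higher in A by the 2-fold limit, beside 8.31% and 9.60% of all genes. Cdkn2a, the locus of p16 and p19Arf, was 3.98-fold higher in B in the authors' deposited table (mean 9644, adjusted p = 0.0854), and was the gene of this list that passed. Cdkn1a, which encodes p21, was 2.05-fold higher according to the authors' deposited table (mean 30715, adjusted p = 1). By the authors' deposited table, log2 ratios of Gja1 and Ndrg1 were -0.24 and -0.89 (adjusted p = 1 for both), and Cdh1 lay under the minimum at a mean of 21.3.

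Heart partners and targets of T-box factors were mostly at low levels, with 3 of 10 at the minimum mean. Nppb, a natriuretic peptide gene, had a log2 ratio of 1.61 at a mean of 82.6 according to the authors' deposited table, Mef2c one of 0.34 and Gata6 one of -0.63 (adjusted p = 1 for each). By the authors' deposited table, Gata4, Nkx2-5 and Gja5, partners or targets of Tbx5 in heart muscle, had mean normalized counts of 4.11, 1.53 and 10.3, and Gata5 is listed at 0.

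**Figure D5:**
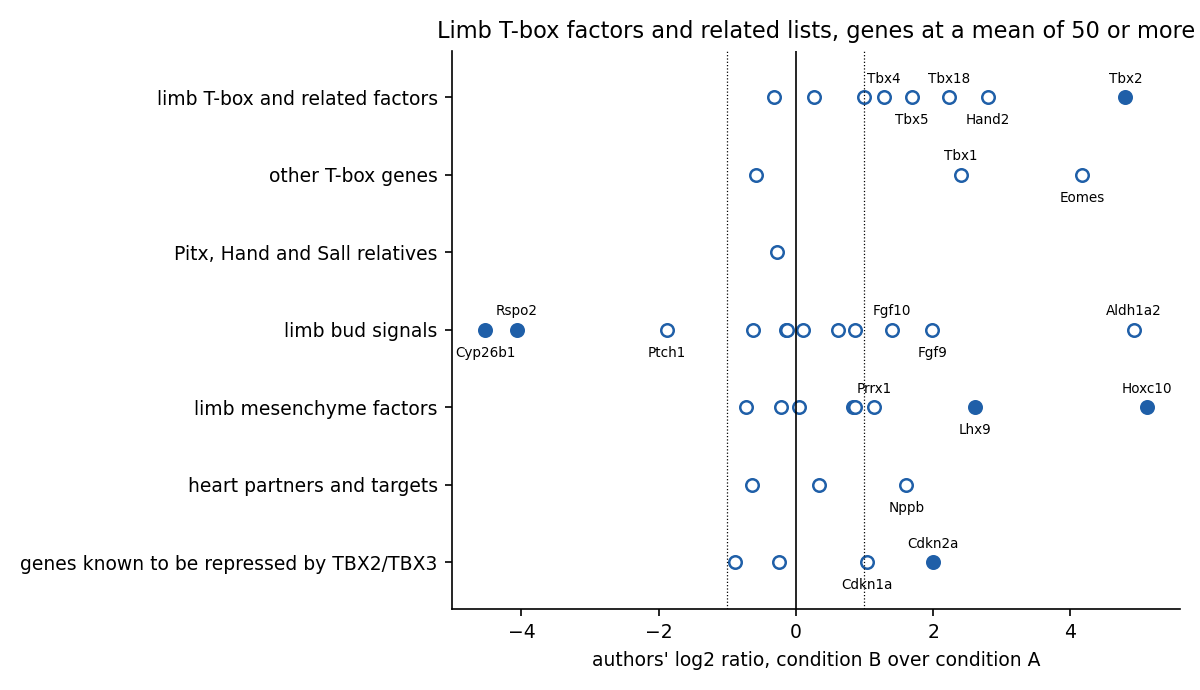
Log2 ratios of B over A in the authors' deposited table for the limb T-box and related factors and 6 related lists, 1 point per gene at a mean normalized count of 50 or more. Filled points have an adjusted p under 0.1, names mark genes past a log2 ratio of 1 in size (dotted lines), and limb bud signals spread from -4.53 to 4.93.

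Markers of cell types were read beside these values. Over all genes at the minimum mean, 8.31% were higher in B and 9.60% higher in A by the 2-fold limit, and 1.98% and 1.22% passed the authors' adjusted p. All 10 fibroblast markers were at the minimum mean, from 248 (Fap) to 550534 (Fn1). Of these, 4 (Pdgfra, Thy1, Fap and Postn) were higher in B by the 2-fold limit and passed the authors' adjusted p in the deposited table. The other 6 had log2 ratios from -0.08 (Col1a1) to 0.66 (Pdgfrb). Of 4 cartilage markers in the authors' deposited table, 3 were at the minimum mean and all 3 were higher in A by the 2-fold limit, with Col2a1 29.3-fold lower in B (adjusted p = 9.30e-09).

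Markers of other cell types went both ways, to be read beside the same shares over all genes. Of 5 heart muscle markers, 1 was at the minimum mean, Tnnt2, which was 3.69-fold higher in B at a mean of 187 (adjusted p = 1), and the others lay between 0.474 (Myh6) and 13.2 (Nppa) in the authors' deposited table. Of 5 epicardial and mesothelial markers, 2 were at the minimum mean. Msln was 2.86-fold lower in B at a mean of 140, and Krt19 had a log2 ratio of -0.02 at a mean of 1146, both with an adjusted p of 1 in the authors' deposited table. The other 3, under the minimum, were Tcf21, Wt1 and Upk3b, with means of 2.37, 10.4 and 48.2. Upk3b and Wt1 had log2 ratios of 3.99 and 2.65 and Tcf21 had a ratio of 0, all resting on few reads. Both endothelial markers at the minimum mean, of 4, were higher in B by the 2-fold limit. The authors' deposited table gives Kdr as 6.88-fold (adjusted p = 0.1001) and Tek as 2.31-fold higher (adjusted p = 1). Pecam1 and Cdh5, under the minimum at means of 9.80 and 8.43, had log2 ratios of 2.06 and -0.36. Of 6 epithelial markers, 1 was at the minimum, Krt18, 4.88-fold lower in B at a mean of 111 according to the authors' deposited table (adjusted p = 1). Of 3 macrophage and blood markers 2 were at the minimum, and of 4 neural and neural crest markers 2, with 1 in each list higher in B by the 2-fold limit and 0 higher in A. The 4 skeletal muscle markers were all under the minimum. So were the 5 pluripotent and germ cell markers, with Lin28a and Dppa3 listed at 0, Pou5f1 at a mean of 0.949, Ddx4 at 9.86 and Nanog at 40.4 in the authors' deposited table, beside Sall4 at 0. The part of these and of the fibroblast and cartilage states in the ratios of the T-box genes was not tested.

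The targeted gene Tet1 was 3.54-fold lower and Tet2 1.67-fold lower in B according to the authors' deposited table (adjusted p = 0.851 and 1). These values do not assign a genotype to either condition.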

How the data were processed

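RNA was sequenced from 1 wild-type and 1 TET1/TET2 knock-out library of mouse embryonic fibroblasts. Per the labels' protocols, total RNA from TRIzol was DNase-treated and entered the TruSeq RNA v2 protocol, an unstranded one. TopHat2 2.0, DESeq and the build mm9 are named in the submitters' processing notes; no counter or annotation is given in the sources used here. The signal deposited by the authors is a mean over both conditions of counts divided by size factors. The ratio, the log2 ratio and the raw and adjusted p-values are also as the authors deposited them, with no pseudocount. Their adjusted p-values run over 17339 genes. Conditions A and B correspond to no label, so 2 columns of values were not used. For that reason no depth per library, counting interval or pseudocount is given.

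Genes at a mean of at least 50 were described by a 2-fold limit (a log2 ratio of 1 or more in either direction) and by the authors' adjusted p under 0.1. The 10 genes and the lists were chosen with earlier results of these data known, and 2 genes of the lists are not reported here. Named were all 10 genes, up to 4 genes with the largest ratios of each list, neighbours that met the 2-fold limit, Tet1 and Tet2. Where 6 or fewer genes of a list were at the minimum, all of these and some under it were named. Outside this rule, Ptch1, Fgf10, Shh, Fgf4, Fgf8 and some cell type markers were also named. No genes of like pattern were sought, since 1 ratio gives no pattern. Promoters came from RefSeq (GRCm38.p6, 4 of the 10 genes matched) and coding sequences from GENCODE M21, aligned with Biopython 1.88. Scripts used Python 3.11.15, pandas 2.3.3 and numpy 2.4.6. Alternatives were other minimum means, fold limits, adjusted p limits and scalings.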

Additional observations from a re-analysis of the deposited data

How the results depend on the processing

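For the 10 limb T-box and related genes, the count higher in B was 5 of 8 and became 3 of 8 at a log2 ratio of at least 2, where Tbx4 and Tbx5 fell short. It was 5 of 9 under a minimum mean of 10 or none and 4 of 6 under 200. At a 1.5-fold limit and under both scalings it was 6 of 8. The count higher in A was 0 under each of these. The median log2 ratio lay between 1.28 (minimum mean of 10 or none) and 1.96 (minimum of 200). Scaling by the trimmed mean (30% of ratios and 5% of means trimmed) and by the median shifted every log2 ratio by 0.04, which put Tbx3 past the 2-fold limit at 1.03 and 1.02 and changed the side of no other member. Tbx2 was the member that passed the authors' adjusted p at 0.1 and at 0.05 and under each minimum. The 6 related lists together held 62 distinct genes, 31 of them at the minimum mean. Of these 31, 11 were higher in B and 3 in A, beside 8.31% and 9.60% of all genes. These counts were 17 and 6 of 43 genes with a minimum mean of 10, and 19 and 7 of 47 with none. With a minimum of 200 they were 6 and 3 of 25. Of the 31 genes, they were 5 and 2 at a log2 ratio of at least 2, and 15 and 7 at 1.5-fold. Shares over all genes were not worked out for settings other than the main one. The pseudocount and the leaving out of libraries were not run, since each genotype had 1 library and no separate value was used. No paired analysis was possible because each genotype had 1 library. Library depths were not analysed here, and genes at low means, Tbx20, Fgf9 and Eomes among them, have ratios that rest on few reads. Tbx2 and Aldh1a2, at higher means, had low counts in A by their ratios.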
